A study of Mus musculus with 6 samples.

Results

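Clone A3 is 1 of 3 clones of mouse embryonic stem (ES) cells built to express human GTF2IRD2, and its 2 arrays were compared here with the 4 arrays of the other clones, A4 and A5, out of 6 arrays in the whole series. All 3 clones derive from the EBRTcH3 (EB3) line. Each carries the human GTF2IRD2 coding sequence with a 3xFLAG tag at the ROSA26 locus, placed there by Cre-mediated cassette exchange and selected with puromycin, under a promoter that tetracycline keeps silent. The cells were kept undifferentiated in medium with serum and leukemia inhibitory factor (LIF). From each clone, 1 culture was sampled at 0 hours, with tetracycline present (uninduced), and 1 culture 24 hours after tetracycline was removed (induced). A3, A4 and A5 are each a single clone and the 2 arrays of a clone are 2 cultures of it, so the p-values below measure the spread between arrays and not between independently derived lines. The DNA of the clones was not analysed here.

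ES cells are derived from the inner cell mass and divide with little differentiation while LIF and serum hold a network of factors such as Pou5f1, Sox2 and Nanog active. Lines picked from single cells are known to drift apart in culture, in the methylation of imprinted genes and in the fraction of cells that lean towards differentiation. Comparing A3 with A4 and A5 shows which genes set 1 clone apart when the transgene sequence, the parent line and the medium are shared. The level of the transgene differed between the clones. In the paper's RT-PCR, transgene RNA was highest in A3, both with tetracycline present and at the sampled time after its removal. The part of transgene level in the differences below was not tested.

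The measurements were log2 intensities after robust multiarray averaging (RMA), 1 value per probe set, so that a difference of 1 is a 2-fold difference. Of 45101 probe sets on the array, 64 are controls, and 34925 carry exactly 1 gene symbol outside chromosome Y, standing for 18184 genes. Array medians were 5.04 and 5.03 in A3 and lay between 5.05 and 5.07 in A4 and A5. The A3 medians were thus lower by 0.02 (exact permutation p = 0.133, two-sided, the smallest that 2 arrays against 4 can give, adjusted p = 0.399). The ES cell markers Pou5f1, Sox2, Nanog, Zfp42 and Esrrb were high on every array, from 10.18 to 12.67, and 0 of the 5 differed past the threshold. Their log2 levels summed to 59.2 and 59.3 in A3 and to 59.5 to 59.7 in A4 and A5. Of 31 markers of fibroblasts, primitive endoderm, neural, trophoblast, mesoderm, endothelial and blood cells, each at its brightest probe set, 20 had a mean under 5 and 1 was called, Kdr, the receptor of vascular endothelial growth factor, which was 0.41 lower in A3. The fibroblast marker Pdgfrb was called lower at the other of its 2 probe sets (-0.65). The summed levels of the 8 fibroblast or feeder markers overlapped (35.7 to 36.4 in A3, 35.9 to 36.3 in A4 and A5), those of the 5 trophoblast markers did too (20.6 to 21.1 and 20.7 to 21.6), and those of the 5 primitive endoderm markers lay lower in A3 (22.8 to 22.9 against 23.2 to 24.5), as did those of the 5 neural markers (28.0 to 28.3 against 28.6 to 29.1), the 4 mesoderm markers with a probe set (19.29 and 19.30 against 19.62 to 20) and the 4 endothelial or blood markers (14.76 and 14.97 against 15.18 to 15.71). For scale, the A3 values did not overlap those of A4 and A5 at 27.85% of all probe sets. The sums of the ES cell markers lay lower in A3 as well. The part of other cell types in the differences below was not tested, and in bulk RNA fewer cells of a type and less RNA per cell cannot be told apart. The 13 probe sets of Gtf2i, Gtf2ird1, Gtf2ird2 and Eif4h, the mouse counterparts of the genes of the study, differed by -0.10 to 0.16 between A3 and the other clones and 0 were called, and they need not detect the human transgene.

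A3 stood apart from A4 and A5 in both directions. With induction as a covariate, 581 probe sets of 448 genes were higher in A3 and 520 probe sets of 406 genes were lower, at a Benjamini-Hochberg adjusted p under 0.05 in limma. These are 1.66% and 1.49% of the probe sets tested. Most of the differences were modest, with a median of 1.445-fold among those higher and 1.439-fold among those lower, and 36 probe sets of 28 genes were over 2-fold higher and 27 of 20 genes over 2-fold lower. In 579 of those called higher and 517 of those called lower, the 2 A3 values did not overlap the 4 values of A4 and A5, as was the case for 27.85% of all probe sets. Counted once per gene at its brightest probe set, 330 genes were higher (1.81%) and 334 lower (1.84%) of 18184, and the median gene differed by -0.01.

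Single arrays of A3 also lay farther from those of other clones. Across probe sets, the SD of the difference between the 2 arrays of a clone was 0.14 to 0.17, between arrays of A4 and A5 it was 0.16 to 0.18, and between an A3 array and an array of another clone it was 0.20 to 0.24. Probe sets over 2-fold apart numbered 2 to 4 within a clone, 5 to 11 between A4 and A5, and 63 to 133 between A3 and the others. The counts of calls rest on both A3 arrays: 99 probe sets were called higher and 71 lower without the uninduced A3 array, and 31 and 31 without the induced one. Leaving out the induced A4 array gave 337 and 295, and the uninduced A4 array 409 and 341. The poly-A spikes, which are added to the RNA before labelling, read 6.58 and 6.91 in A3 and 6.06 to 6.57 in A4 and A5 (exact permutation p = 0.133, two-sided, the smallest that 2 arrays against 4 can give, adjusted p = 0.399). Their part in the differences was not tested. The Actb and Gapdh 3' to 5' differences, a measure of RNA integrity, overlapped between the arms (0.32 and 0.35 in A3 against 0.27 to 0.36 for Actb).

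**Figure D1:**
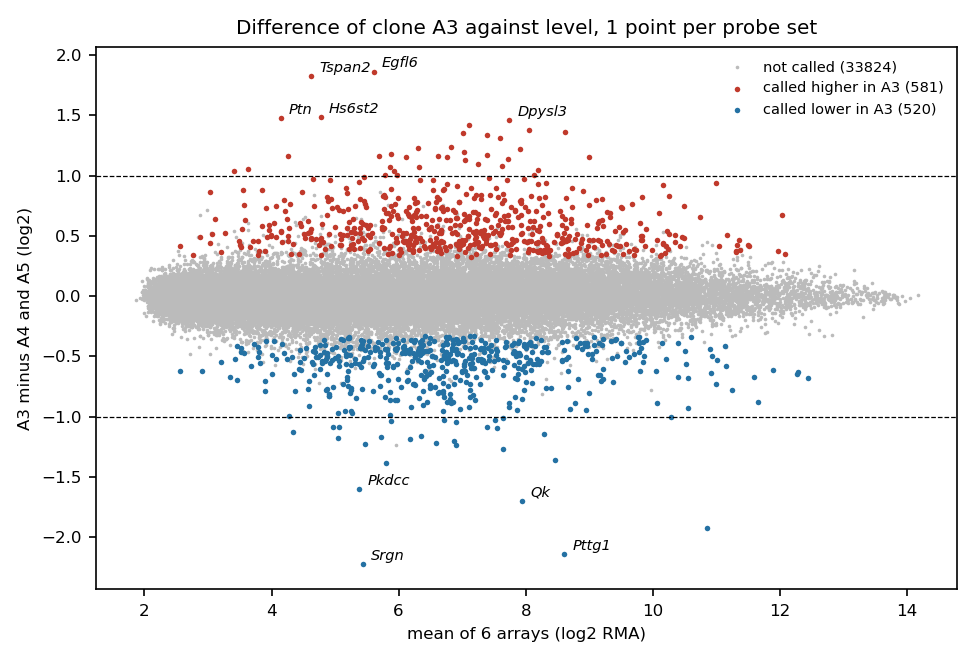
Difference between A3 and the mean of A4 and A5 (log2, y axis) against the mean log2 level over the 6 arrays (x axis) for 34925 probe sets, with called probe sets coloured by direction (red higher, blue lower in A3) and dashed lines at a 2-fold difference. Called probe sets lie on both sides of 0, and Srgn, Pttg1 and Qk at the bottom and Egfl6 and Tspan2 at the top lie farthest out.

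The 15 genes with the largest differences in each direction are given at the probe set where they lay farthest apart, with their other probe sets where they have any. They were taken from called probe sets with 1 sign in the 4 differences between A3 and A4 or A5 in the same induction state. That A3 lies apart from the other clones in them therefore follows largely from the choice. Egfl6, the gene with the largest difference upward, a secreted protein with EGF-like repeats and a single probe set, read 6.61 uninduced and 7.08 induced in A3, 5.13 and 4.94 in A4, and 5.00 and 4.88 in A5. The difference was 1.86 ± 0.13 (SE, 2 arrays against 4, adjusted p = 0.000533). Tspan2, a tetraspanin of the plasma membrane, read 5.79 and 5.88 in A3, 3.89 and 4.11 in A4, and 3.97 and 4.05 in A5, a difference of 1.83 ± 0.07 (adjusted p = 5.15e-05), and its 3 probe sets were all called. For both genes every A3 value lay above every other value by more than 1.

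Hs6st2, which adds sulfate to heparan sulfate chains, read 5.51 and 6.01 in A3 against 4.02 to 4.38 in A4 and A5 (difference 1.48 ± 0.15), with 1 of 4 probe sets called and the lowest of them at -0.07. Ptn, pleiotrophin, a heparin-binding growth factor, read 4.57 and 5.68 in A3 against 3.52 to 3.93 (1.48 ± 0.18), with 1 of 3 probe sets called and the lowest at -0.13. Its 2 A3 values lay farther apart than those of Egfl6. Efnb2, a membrane-bound ligand of Eph receptors, read 7.60 and 8.05 in A3 against 6.48 to 6.80 (1.19 ± 0.12), with 3 of 4 probe sets called and the lowest at -0.03. Clu, clusterin, a secreted chaperone, read 7.89 and 7.95 against 6.37 to 6.83 (1.35 ± 0.11), and its 4 probe sets were all called. Spink1, a secreted inhibitor of trypsin, read 9.48 and 9.59 against 7.95 to 8.32 (1.36 ± 0.11). In each of these 5 genes the A3 values lay above all others at the probe set farthest apart, which their choice largely fixed. For Hs6st2, Ptn and Efnb2 another probe set showed no such difference.

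Others of the 15 have other roles. Egr1, an immediate early transcription factor induced by ERK signalling, read 9.08 and 8.86 in A3, 7.46 and 7.50 in A4, and 7.91 and 7.52 in A5 (1.37 ± 0.12, adjusted p = 0.00104). Sox11, a transcription factor of neural precursors, read 8.18 and 8.76 in A3 against 7.02 to 7.25 (1.31 ± 0.11), with 5 of 6 probe sets called. Neurog3, the bHLH factor of endocrine precursors, read 6.49 and 6.85 against 5.42 to 5.58 (1.18 ± 0.08), with 2 of 2 called. Dpysl3, which binds microtubules in growing axons, read 8.73 and 8.68 against 7.0 to 7.50 (1.46 ± 0.13), with 3 of 3 probe sets called. Mex3b, an RNA-binding protein, and Gadd45g, a stress-inducible gene of the growth arrest family, were higher by 1.225 ± 0.08 and 1.24 ± 0.09. Sccpdh was higher at 1 of its 2 probe sets (1.42 ± 0.08) and differed by 0.01 at the other, and Tmem40 (1.22 ± 0.07) was called at 3 of 3. These complete the 15 genes.

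The lower genes reached farther. Srgn, serglycin, a proteoglycan core protein of secretory granules, read 3.64 and 4.26 in A3, 5.76 and 5.83 in A4, and 6.39 and 6.71 in A5. It was lower by 2.22 (-2.22 ± 0.25, adjusted p = 0.00285), with A4 and A5 also apart from each other. Pttg1, securin, which holds separase inactive until anaphase, read 7.25 and 7.11 in A3, 9.36 and 9.28 in A4, and 9.16 and 9.46 in A5 at one probe set (-2.14 ± 0.10, adjusted p = 8.85e-05). At its brightest probe set it read 9.60 and 9.54 in A3 against 11.41 to 11.59 in the others (-1.93 ± 0.08, adjusted p = 5.15e-05), and at the third, not called, the difference was -0.24. Qk, the RNA-binding splicing regulator quaking, read 6.82 and 6.81 in A3 and 8.36 to 8.69 in the others at the probe set farthest apart (-1.70 ± 0.10). All 7 Qk probe sets were lower in A3 by value, from -1.70 to -0.31, and 4 were called, but not the brightest (-0.31 ± 0.07, adjusted p = 0.0645).

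Ccnd2, cyclin D2, which drives the passage from G1 into S phase, read 6.82 and 6.77 in A3 against 7.94 to 8.16 (-1.27 ± 0.09), and its 7 probe sets were all called, from -1.27 to -0.99. Pkdcc, a secreted kinase, read 4.35 and 4.265 against 5.76 to 6.20 (-1.60 ± 0.12). Gabarapl1, an autophagosome protein, read 4.81 and 4.96 against 6.01 to 6.50 (-1.38 ± 0.13), with both of its 2 probe sets called. Phf10, a subunit of the BAF chromatin remodeller, read 5.78 and 5.75 against 6.88 to 7.17 at one probe set (-1.22 ± 0.08) and was also called at the other. Wfdc2 (-1.36), the tetraspanin Cd37 (-1.23), the prostaglandin receptor Ptger2 (-1.22), Pon2 (-1.18), Mipol1 (-1.18), Zfp53 (-1.16), the iron exporter Slc40a1 (-1.09) and the X-linked homeobox gene Rhox6 (-1.09) make up the rest of the 15. Of these, Cd37 was called at 1 of 2 probe sets (-1.23 and -0.40), and Pon2 and Mipol1 each at 2 of 4, with the highest of the 4 at 0.08 and 0.05. For every one of these 15 genes both A3 values lay below all 4 values of A4 and A5 at the probe set farthest apart. The choice of called genes with the largest differences largely fixed this.

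**Figure D2:**
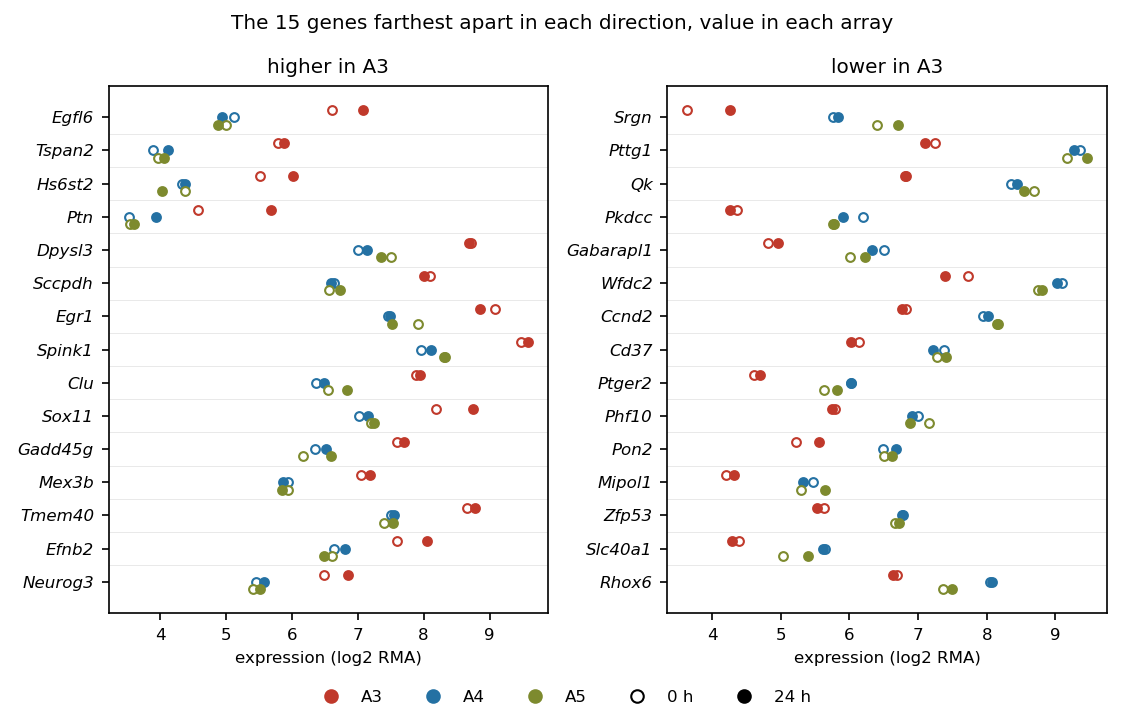
Log2 levels on each of the 6 arrays (x axis) for the 15 genes farthest up and the 15 farthest down in A3 (rows), each at the probe set with the largest difference, with points coloured by clone and open or filled by induction state. The A3 points stand to one side of the A4 and A5 points in every row, which the choice of called genes largely fixed.

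Where genes sit on the chromosomes bears on the lower direction. Each gene with a mean of at least 5 was placed in the order of the RefSeq gene table (assembly GRCm38.p6, used for names and order alone, since no build is given for the array's own annotation), and the median difference was taken over windows of 11 neighbouring genes. Windows with a median below -0.4 occurred on chromosome 17 and on no other chromosome. From the first to the last called gene of these windows, Agpat4 to Zfp946, lay 64 measured genes, of which 36 were called lower in A3 and 0 higher. This stretch was found by looking at the differences themselves, so its counts are a description with no test.

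Within it the calls lay among the expressed genes. Of the 38 genes with a mean of at least 5, all 38 were lower in A3 by value, 33 were called and in 36 the arms did not overlap. Their median difference was -0.69, a factor of 1.61, with quartiles of -0.85 and -0.56. It was -0.71 among the uninduced and -0.69 among the induced arrays, and -0.68 against A4 and -0.69 against A5. Between A5 and A4 the same genes differed by a median of -0.01. Without the uninduced A3 array 15 of the 38 were called, and without the induced one 9. The 5 not called were Dll1 (-0.06), Has1 (-0.03), Lix1 (-0.34), Zfp944 (-0.57) and Zfp758 (-0.40). Of the 26 genes with a mean under 5, whose values lie near the array's floor, 3 were called and the median was -0.06. The 8 expressed genes on the near side, ending in Qk, had a median of -0.09 with 0 called at the brightest probe set, though Qk itself was called lower at 4 of its 7 probe sets, down to -1.70, and the 8 on the far side, starting with Zfp945, a median of -0.06 with 0 called. Just inside the ends, Agpat4 was -0.52 and Zfp946 -0.86, and just outside them the brightest probe set of Qk was -0.31 and Zfp945 was -0.17.

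**Figure D3:**
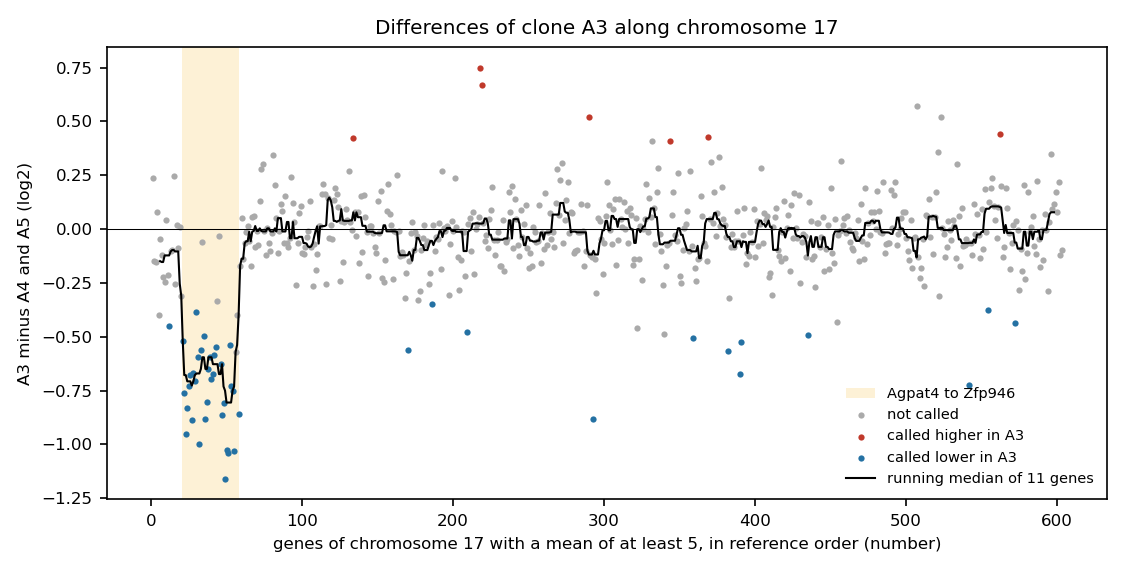
Difference between A3 and the mean of A4 and A5 (log2, y axis) for each chromosome 17 gene with a mean of at least 5, in gene order along the chromosome (x axis), with called genes coloured by direction, the running median over 11 genes as a line and the stretch from Agpat4 to Zfp946 shaded. Inside the shading, near the first end of the gene order, the line runs far below 0 around the stretch median of -0.69, and at either side it lies near 0.

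The genes in the stretch have varied roles. Igf2r, the imprinted receptor that carries IGF2 and mannose-6-phosphate proteins to lysosomes, read 6.10 and 6.02 in A3, 7.0 and 6.99 in A4, and 7.04 and 7.03 in A5 (-0.95 ± 0.07, adjusted p = 0.000619). Airn, the noncoding RNA transcribed from the opposite strand of the same locus, had a mean of 4.11 and was not called (-0.14). Its neighbours Mrpl18, a mitochondrial ribosomal protein, and Tcp1, a subunit of the cytosolic chaperonin, read 10.52 and 10.50 against 11.22 to 11.26 (-0.73 ± 0.07) and 12.04 and 11.93 against 12.61 to 12.73 (-0.68 ± 0.08). Wtap, of the RNA N6-adenosine methyltransferase complex, read 9.41 and 9.54 in A3 against 10.34 to 10.39 (-0.89 ± 0.07), and Sod2, the mitochondrial superoxide dismutase, 11.18 and 11.12 against 11.77 to 11.86 (-0.67 ± 0.07).

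Farther along, Psmb1, a subunit of the proteasome core, read 11.06 and 11.08 in A3, 12.00 and 11.95 in A4, and 11.89 and 11.97 in A5 (-0.88 ± 0.07, adjusted p = 0.000984). Tbp, the TATA-binding protein, read 8.35 and 8.56 against 9.22 to 9.30 (-0.80 ± 0.07). At its brightest probe set Phf10 read 9.59 and 9.66 against 10.58 to 10.69 (-1.0 ± 0.07). Chd1, a chromatin remodeller (-0.60), Rgmb, a co-receptor for bone morphogenetic proteins (-0.70), Ppp2r1a, the scaffold of protein phosphatase PP2A (-0.63), and Map3k4, a stress kinase (-0.76), were lower as well. Rgmb was called at 1 of 6 probe sets, with the highest at -0.04. Toward the far end lies a run of zinc finger genes, 18 measured and 13 called lower. In the brightest of them, Zfp229, the difference was -0.54, and in Zfp53, Zfp760, Zfp942 and Zfp948 it was -1.16, -1.04, -1.03 and -1.02.

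**Figure D4:**
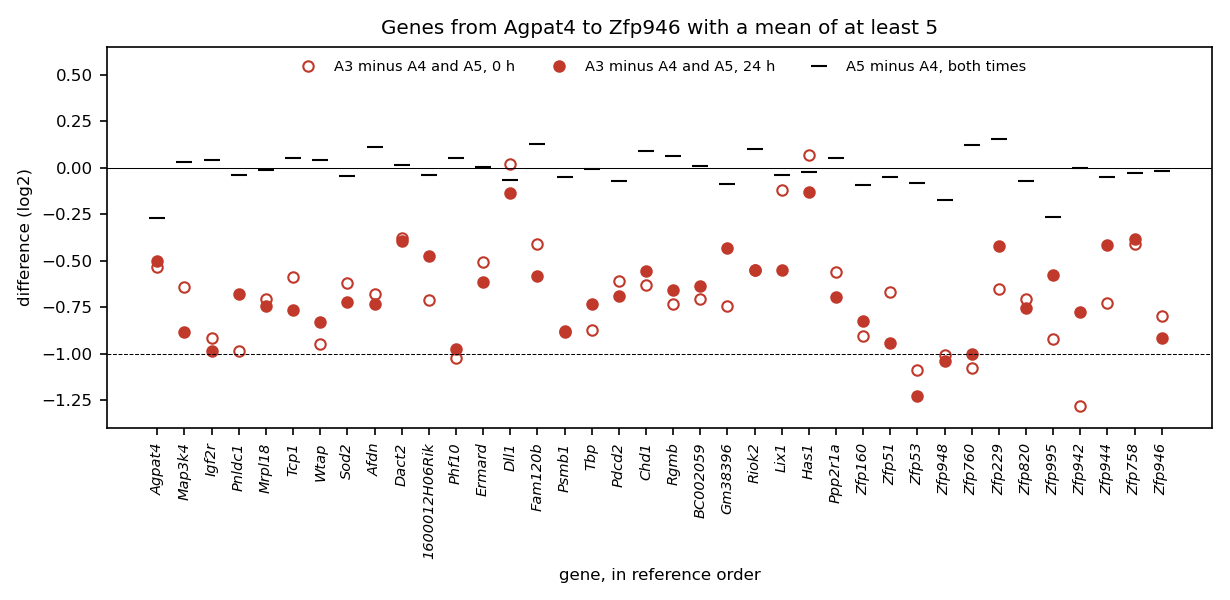
Log2 differences (y axis) of the 38 expressed genes of the chromosome 17 stretch in gene order (x axis), with A3 minus the mean of A4 and A5 as open circles at 0 hours and filled circles at 24 hours, and A5 minus A4 as dashes. The circles lie below 0 except those of Dll1 and Has1 at 0 hours, and the dashes lie on both sides of 0.

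Of the 775 other genes of chromosome 17, 13 were called lower (1.68%) and 9 higher, against 1.84% and 1.81% of all genes. The stretch held 10.8% of all genes called lower at their brightest probe set and 34 of the 184 genes lower by more than 0.5. Without it, 459 probe sets and 298 genes were called lower. Of the 34 stretch genes with several probe sets, 13 had all of them called lower. The next lowest window lay on chromosome 4 around Mutyh (median -0.37), where 0 of its 11 genes were called and the arrays of A5 themselves lay below those of A4, with a lowest running median of -0.86 between these 2 clones. The highest window lay on chromosome 7 among zinc finger genes (median 0.33), where Zfp619 (0.38), Zfp141 (0.50) and Zfp936 (0.73) were called higher.

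The promoters of 3 stretch genes are shown because neighbouring genes can share a promoter. Each line gives 300 bases of RefSeq sequence, from 250 before the start of the gene to 50 after it, 5′ to 3′ on the gene's own strand, with each CG dinucleotide in capitals. Tcp1 lies at chr17:12916079-12916378 (GRCm38.p6, plus strand), Igf2r at chr17:12769657-12769956 (minus strand) and Zfp53 at chr17:21488738-21489037 (plus strand). Pttg1, the called gene outside the stretch lowest in A3 beside Srgn, at chr11:43425932-43426231 (minus strand), and Egfl6, the gene with the largest difference upward, at chrX:166585667-166585966 (minus strand), are given for comparison.
Tcp1: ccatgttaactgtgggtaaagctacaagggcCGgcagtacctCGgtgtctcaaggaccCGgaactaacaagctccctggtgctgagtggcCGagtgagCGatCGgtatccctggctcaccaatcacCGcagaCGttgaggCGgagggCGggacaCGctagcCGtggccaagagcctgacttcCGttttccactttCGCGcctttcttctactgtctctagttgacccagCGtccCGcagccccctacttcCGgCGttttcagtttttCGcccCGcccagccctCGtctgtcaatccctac
Igf2r: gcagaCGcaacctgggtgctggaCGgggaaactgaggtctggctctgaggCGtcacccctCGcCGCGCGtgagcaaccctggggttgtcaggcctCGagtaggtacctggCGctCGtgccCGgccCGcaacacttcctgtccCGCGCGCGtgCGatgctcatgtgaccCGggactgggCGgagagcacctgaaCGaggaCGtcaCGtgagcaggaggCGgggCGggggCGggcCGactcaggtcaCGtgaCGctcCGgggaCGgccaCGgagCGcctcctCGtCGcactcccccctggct
Zfp53: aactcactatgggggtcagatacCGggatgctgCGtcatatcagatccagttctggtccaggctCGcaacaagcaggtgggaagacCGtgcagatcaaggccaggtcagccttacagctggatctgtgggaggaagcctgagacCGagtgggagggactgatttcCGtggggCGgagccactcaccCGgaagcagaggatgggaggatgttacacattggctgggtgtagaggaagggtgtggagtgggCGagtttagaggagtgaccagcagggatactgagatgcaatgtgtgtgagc
Pttg1: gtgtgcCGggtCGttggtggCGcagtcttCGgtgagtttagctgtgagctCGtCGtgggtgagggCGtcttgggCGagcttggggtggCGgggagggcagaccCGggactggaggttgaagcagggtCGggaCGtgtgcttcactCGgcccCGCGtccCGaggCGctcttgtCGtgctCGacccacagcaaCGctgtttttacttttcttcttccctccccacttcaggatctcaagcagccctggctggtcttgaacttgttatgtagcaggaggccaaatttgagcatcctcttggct
Egfl6: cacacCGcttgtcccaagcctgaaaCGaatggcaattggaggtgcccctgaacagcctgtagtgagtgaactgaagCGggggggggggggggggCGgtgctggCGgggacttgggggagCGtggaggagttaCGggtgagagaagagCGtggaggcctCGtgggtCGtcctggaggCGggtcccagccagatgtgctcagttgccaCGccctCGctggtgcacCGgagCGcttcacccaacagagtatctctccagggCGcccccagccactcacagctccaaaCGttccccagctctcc

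The 5 windows hold 22, 34, 9, 20 and 17 CG dinucleotides in that order. The Tcp1 window overlaps that of Mrpl18, which is transcribed from the opposite strand, by 263 bases, so this pair shares most of its promoter window. Of the 5 pairs of stretch genes whose windows overlap, Map3k4 and 4732491K20Rik share the most, 292 bases, and differed by -0.76 (called) and -0.19 (not called). The windows of Zfp942 and Zfp943 overlap by 194 bases, those of Zfp944 and Zfp758, neither of them called, by 162, and those of 1600012H06Rik (-0.59, called) and Wdr27 (-0.06, not called) by 159. The probe sets of 4732491K20Rik and Wdr27 had means of 2.94 and 3.44, near the array's floor, where a difference could hardly show. Igf2r and Zfp53, with many and few CG dinucleotides, differed by -0.95 and -1.16. A window was counted as CpG-rich at an observed to expected ratio of at least 0.6 and a GC content of at least 50%. Among expressed genes with a window in the table, 72.4% of all 9641 were CpG-rich, 56.0% of the 216 called higher and 62.2% of the 225 called lower. The motif TATAAA on the gene's strand was found in 5.33% of all these, 7.41% of those called higher and 8.0% of those called lower, and its reverse complement TTTATA in 3.85%, 4.17% and 2.67%. Over all 14444 measured genes with a window, whatever their mean level, 57.2% were CpG-rich. The shares were 53.6% of the 237 called higher and 61.8% of the 254 called lower. The CpG-rich share of genes called lower was thus below that of all genes among expressed genes, and above it without that limit. TATAAA was then found in 7.46% of all, 8.02% of those called higher and 7.48% of those called lower. Of all 32851 windows in the table, 33.5% were CpG-rich, 8.32% held TATAAA and 6.95% TTTATA.

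Gene lists were read by counts of called genes at the brightest probe set, beside the 1.81% higher and 1.84% lower over all genes. They held 1272 measured genes in 58 lists, with 21 families grouped by name. By value, 8360 of all 18184 genes were higher in A3 and 9824 lower. Of the 552 genes with several probe sets and at least 1 called, 72 had all of them called and 376 had 1. Other probe sets are given below for some genes only. The early neural list, of 29 measured genes, had 5 called higher and 1 lower, with a median of 0.04. Beside Sox11 and Dpysl3 it held Nefl, the light neurofilament chain, which read 9.24 and 9.41 in A3 against 8.22 to 8.60 (0.89 ± 0.11), and Gap43, of axonal growth cones, which read 7.93 and 8.07 against 7.06 to 7.27 (0.84 ± 0.08). Neurod1, a neuronal bHLH factor, was lower (-0.67 ± 0.13). Defining neural factors such as Sox1 (0.09) and Pax6 (-0.33) were not called.

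Genes of the trophoblast, the outer layer of the embryo that forms the placenta, were called lower in 3 of 21 cases and higher in 1. Tfap2c, a transcription factor of trophoblast and germ cells, read 8.32 and 8.31 in A3, 9.42 and 9.42 in A4, and 9.05 and 9.15 in A5 (-0.95 ± 0.12), with 3 of 3 probe sets called. Eomes, a T-box factor, read 6.04 and 5.98 against 6.61 to 7.01 (-0.75 ± 0.11), and the keratin Krt18 was lower by 0.56 (-0.56). Ascl2, an imprinted bHLH factor of trophoblast, was higher (0.82 ± 0.09). Of the Rhox homeobox genes, a cluster on chromosome X expressed in placenta and germ line, 3 of 4 measured were lower, namely Rhox6, Rhox9 (-0.92) and Rhox13 (-0.46). For Rhox6, A3 read 6.69 and 6.63, A5 7.36 and 7.50, and A4 8.05 and 8.08, so that A4 and A5 did not overlap either. Of 23 germ line genes 1 was higher, Tdrd12 of the piRNA pathway (0.74), and 2 lower, Kit (-0.46) and Mael (-0.45).

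The pluripotency network itself was nearly level. Of 20 core and naive genes 0 were higher and 1 was lower, Prdm14, a repressor of primed and germ layer genes, which read 7.51 and 7.39 in A3 against 7.86 to 8.23 (-0.65 ± 0.11). Of 21 genes of the primed epiblast, the state just before gastrulation, 3 were higher, Pim2 (0.83 ± 0.07), the DNA methyltransferase Dnmt3b (0.42) and Sox4 (0.42), and 0 lower. Sox4 was called at 2 of 8 probe sets, with the lowest at -0.05. Of 22 further ES-enriched genes 3 were higher, Dnmt3l (0.67 ± 0.08), the fatty acid transporter Slc27a2 (0.65) and Pdzk1 (0.45), and 0 lower. Among 28 endoderm genes 1 was higher and 2 lower, and the 9 endoderm factors measured were all lower by value at a median of -0.18, with 0 called. Among 21 mesoderm genes Snai1 was higher (0.45) and Eomes and Kdr lower.

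Each signalling list held few calls. For bone morphogenetic proteins (BMP), 1 of 29 genes was higher and 3 lower. The ligand Bmp4 read 9.69 and 9.59 in A3 against 10.15 to 10.34 (-0.62 ± 0.07), and the protease Bmp1, which the list groups with the ligands (-0.39), and the inhibitor Smad6 (-0.63) were lower too. Bmp1 was called at 1 of 3 probe sets, with the highest at 0.30. Id2, a BMP target that blocks bHLH factors, was higher at 8.49 and 9.12 against 7.56 to 8.15 (1.01 ± 0.17). It was called at 2 of 3 probe sets, with the lowest at 0.09. Id2 and the ligand Bmp4 thus differed in opposite directions. The 13 BMP targets and inhibitors together had a median of -0.0016, with 1 called higher and 1 lower. For Nodal and Activin, 0 of 25 were higher and 3 lower. These were the target and inhibitor Lefty2 (-0.85 ± 0.16), the inhibitor Smad7 (-0.71 ± 0.11) and the protease Furin (-0.51). Of 21 Notch genes the ligand Jag1 was higher (0.55), and the receptor Notch4 (-0.88), the glycosyltransferase Mfng (-0.52) and the target Hes1 (-0.40) were lower. Notch4 was called at 1 of 3 probe sets, with the highest at -0.03.

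In the FGF-ERK list of 33 genes the ligand Fgf4 read 10.17 and 10.16 in A3 against 9.62 to 9.72 (0.495 ± 0.07), the target Egr1 was higher as given above, and Dusp4, a phosphatase that acts on ERK, was lower (-0.56 ± 0.10). Receptors (0 of 5) and the kinase relay (0 of 6) were not called. Of 17 LIF and STAT3 genes 0 were higher and 2 lower, the targets Pim1 (-0.48) and Socs2 (-0.39, called at 1 of 6 probe sets, with the highest at -0.004). The 10 targets and feedback genes of that list had a median of -0.17, with 8 lower by value, against 0.05 over the 7 genes of ligand, receptors and relay. Of 17 Hippo genes the targets Ccn2 (0.69) and Amotl2 (0.58) were higher and the DNA-binding partner Tead2 (-0.56) lower. Of 18 retinoic acid genes the binding proteins Crabp2 (0.59) and Crabp1 (-0.79) went opposite ways, and Stra8, a gene induced by retinoic acid in germ cells, was lower (-0.53). Of 61 Wnt genes 1, the inhibitor Shisa2, was higher (0.45) and 0 lower. Of 20 genes of insulin-like growth factor signalling Igf2r and Akt1 (-0.37) were lower. Akt1 was called at 1 of 4 probe sets, with the highest at -0.02.

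Few cell cycle genes were called. Of 19 genes of securin, separase and cohesin 3 were lower, Pttg1 and the meiotic cohesin subunits Smc1b (-0.42) and Stag3 (-0.40). Of 23 cyclins and CDK inhibitors 2 were lower, Ccnd2 and Ccnd3 (-0.49 ± 0.10), and 1 higher, the imprinted inhibitor Cdkn1c, which read 10.52 and 10.60 against 9.81 to 9.90 (0.69 ± 0.07). Ccnd3 was called at 1 of 3 probe sets, with the highest at -0.03. The anaphase-promoting complex (17 genes), the mitotic spindle and checkpoint (29) and DNA replication (33) had 0 called in either direction, and 22 of 29 and 27 of 33 members of the last pair of lists were higher by value at medians of 0.09 and 0.05. Of 19 p53 response genes 0 were higher and 2 lower, the proapoptotic Pmaip1 (-0.85 ± 0.08) and the death receptor Tnfrsf10b (-0.41), and the list's median was -0.16. Bcl2l11, which encodes the proapoptotic protein BIM, was the 1 gene called of 20 in the apoptosis and BCL2 family list (-0.60 ± 0.09).

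**Figure D5:**
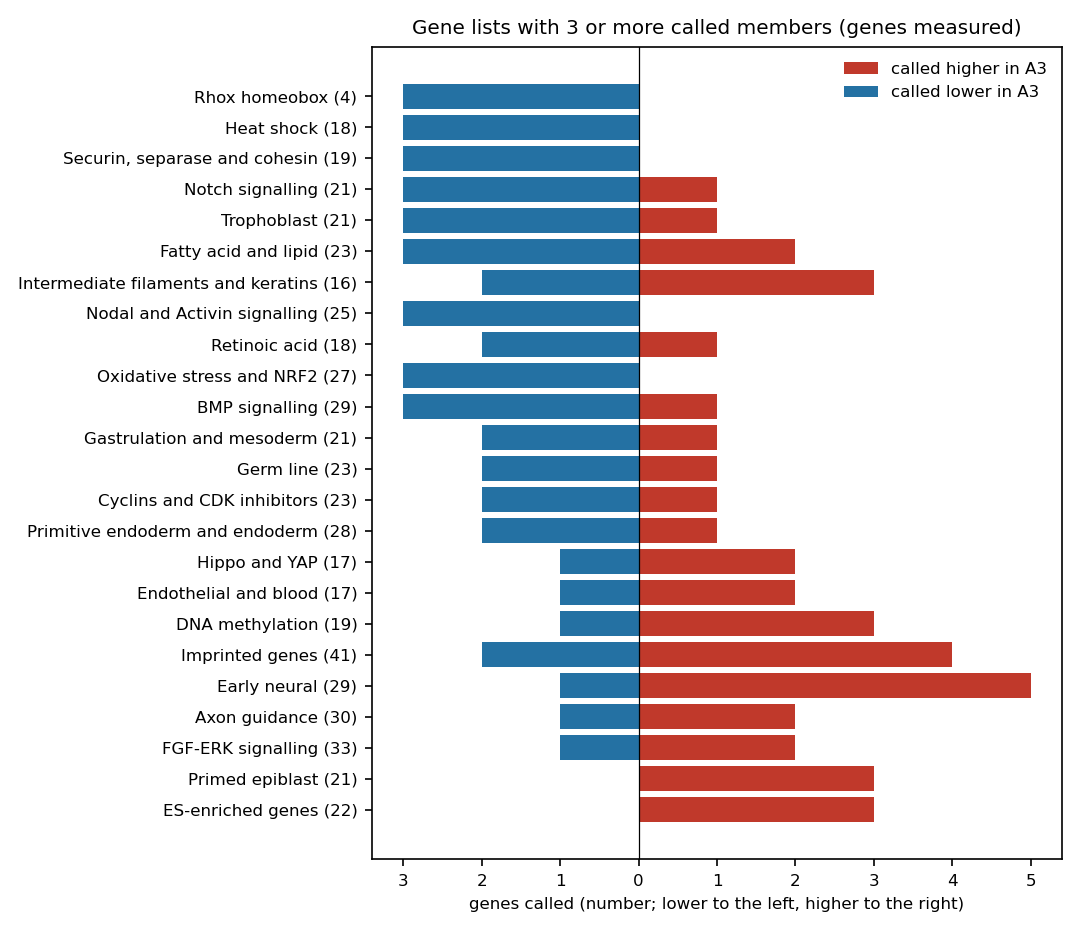
Number of genes called lower in A3 (blue, to the left of 0) and higher (red, to the right of 0) on the x axis for each gene list with at least 3 calls (rows, with the number of genes measured in brackets). The bars reach 3 genes lower in lists such as Rhox, heat shock and trophoblast, 4 higher among imprinted genes and 5 higher in the early neural list.

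Imprinted genes, expressed from 1 parental copy, were called higher in 4 of 41 cases and lower in 2. The 4 that were higher are all maternally expressed, and 2 of them, Rian and Mirg, are noncoding RNAs of the same cluster on chromosome 12. Rian read 9.57 and 9.88 in A3 against 8.74 to 9.15 (0.80 ± 0.12), with 4 of 4 probe sets called. Mirg read 8.24 and 8.27 against 7.41 to 7.62 (0.74 ± 0.08), with 2 of 2. Meg3, of the same cluster, had 2 of 11 probe sets called, both higher, with differences from 0.01 to 0.81 over the 11. Ascl2 and Cdkn1c, named above, are the other two. Of 20 maternally expressed genes 4 were thus higher and 1, Igf2r of the chromosome 17 stretch, lower. Of 21 paternally expressed genes 0 were higher and 1 lower, Slc38a4 (-0.45). In the DNA methylation list of 19 genes, Dnmt3l, which read 12.47 and 12.49 in A3 against 11.72 to 11.88 and stimulates the de novo methyltransferases, Dnmt3b and Gadd45g were higher, and Gadd45a (-0.36) was lower.

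Several metabolic and stress genes were lower in A3. Of 20 sterol synthesis genes 18 were lower by value at a median of -0.16, with 2 called, Insig1, which retains the sterol sensor in the endoplasmic reticulum (-0.41), and Pmvk (-0.39). Over all genes, 9824 of 18184 were lower by value. Of 23 fatty acid and lipid genes 3 were lower, the desaturases Fads2 (-0.62) and Scd1 (-0.50) and the binding protein Fabp3 (-0.55), and 2 higher, the lipoprotein lipase Lpl (0.71) and the dehydrogenase Acadl (0.36). Of 18 heat shock genes 3 were lower, the small chaperone Cryab (-0.95 ± 0.08), Hspa4l (-0.70) and the collagen chaperone Serpinh1 (-0.54). Hspa4l was called at 1 of 5 probe sets, with the highest at 0.25. Of 27 oxidative stress genes 3 were lower, Gstm5 (-0.86), Sod2 and Srxn1 (-0.55), of which Sod2 lies in the stretch. Srxn1 was called at 2 of 4 probe sets, with the highest at -0.07. Pdk4, which shuts pyruvate out of the citric acid cycle, was lower (-0.62), and so were the amino acid stress genes Atf5 (-0.68) and Psph (-0.34). Respiratory chain (33 genes), unfolded protein response (20) and interferon (27) lists had 0 called.

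Surface and cytoskeletal genes were called in both directions. Of 16 intermediate filament genes 3 were higher, Nefl, Ina (0.39) and Vim (0.38), and 2 lower, Des (-0.58) and Krt18. Des was called at 1 of 2 probe sets and differed by -0.07 at the other. Vim, vimentin, was also the 1 of 25 fibroblast and feeder genes called at its brightest probe set, at 11.52 and 11.74 against 11.14 to 11.35. Integrins were lower in 2 of 18, Itga1 (-0.76) and Itgb7 (-0.36), and cadherin and junction genes in 2 of 27, Cdh3 (-0.37) and Tjp3 (-0.365). Itga1 was called at 1 of 2 probe sets and differed by 0.12 at the other. Of 30 axon guidance genes Efnb2 and Ntn1 (0.55) were higher and Sema3e (-0.54) lower. Of 17 endothelial and blood genes the receptor Tek (0.70) and Cd34 (0.42) were higher and Esam (-0.50) lower. Among families named by symbol, 7 of 347 solute carriers were higher and 11 lower, and 3 of 40 serpins were higher and 1 lower. Single members stood out of large level families, such as Rpl39l, a paralog of a ribosomal protein gene, at 11.62 and 11.60 against 10.60 to 10.74 (0.94 ± 0.08), with 1 of 54 ribosomal protein genes called, and Psma8, the testis form of a proteasome subunit (0.64).

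Leaving the chromosome 17 stretch out changed the reading of several lists. Of 336 Zfp genes 20 were lower (5.95%), of which 13 lie in the stretch, and 7 of 318 were lower without it (2.20%), beside 8 higher. Mrpl18 was the single mitochondrial ribosomal gene of 76 called, Psmb1 the single proteasome gene of 44 called lower and Chd1 the single gene of 30 in the trithorax and remodeller list, so these 3 lists had 0 called lower without it. Oxidative stress went from 3 to 2 called lower, and imprinted genes and insulin-like growth factor signalling each from 2 to 1. The other lists held no called gene of the stretch. By chromosome, 49 of 839 genes of chromosome 17 were called lower (5.84%), and on chromosome X 27 of 618 genes were called higher (4.37%) and 9 lower (1.46%), with a median difference of 0.03 on X. The 12 genes of the X inactivation list had 0 called.

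Whether A3 answered the removal of tetracycline unlike the other clones was asked by the interaction of clone and induction. In limma 0 probe sets were called, with 1345 at an unadjusted p under 0.05 (3.85% of those tested) and a smallest adjusted p of 0.9998. A3 gives a single pair of arrays to this comparison, and the median SE of an interaction was 0.17, so that only large differences in response could have been seen. The genes with the smallest p are given as values. For Hspa1a, an inducible heat shock chaperone, the induced array minus the uninduced one was 0.14 for A3, and for A4 and A5 it was 1.08 and 0.97. For Mef2a, a transcription factor of muscle and neurons, it was 0.50 for A3 and for the others -0.18 and -0.26, and for Tenm4, a transmembrane protein of neurons, 0.66, -0.06 and -0.21 in the same order. None of these differences in response passed the adjustment. Of the 1101 probe sets that set A3 apart, 33 (3.00%) had an unadjusted interaction p under 0.05.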

How the data were processed

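Total RNA of 6 ES cell cultures had been hybridised to Affymetrix Mouse Genome 430_2 arrays, 1 per sample. The deposited log2 values are RMA summaries, which the authors made with the affy package of Bioconductor by background correction, quantile normalisation and summarisation. Versions of these tools and the genome build of the annotation are not given in the sources used here. No step after RMA was added.

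Samples were grouped by the labels, which give clone and hours without tetracycline. A3 was compared with A4 and A5 by limma 3.58.1 (lmFit and eBayes, two-sided, R 4.3.3) with induction as a covariate, over all 45037 probe sets that are not controls, with 3 residual and 5.77 prior degrees of freedom. Calls were made at a Benjamini-Hochberg adjusted p under 0.05 and counted over the 34925 probe sets with 1 symbol outside chromosome Y (20 probe sets of 9 genes on Y were left out, as were 932 with several symbols and 9160 with none). Symbols came from the platform's probe table, and 34721 of these probe sets matched the RefSeq table (GRCm38.p6) by Entrez identifier. A second model added the interaction of clone and induction. The brightest probe set over the 6 arrays stood for a gene in lists. Control probe sets were compared by exact permutation tests. On simulated data for the A3 comparison (45037 probe sets), 57% of 1.25-fold, 99.5% of 1.5-fold and 100% of 2-fold and 3-fold differences were recovered. The simulated noise was independent between arrays and held no spread between clones. These shares therefore check the fit and do not apply where clones vary among themselves.

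The members and lists were chosen with earlier results of these data known. Named genes were all probe sets of Gtf2i, Gtf2ird1, Gtf2ird2 and Eif4h; in each direction the 15 called genes with the largest difference, a mean of at least 5 in the arm where higher and 1 sign in the 4 same-state differences; up to 4 called members per list and direction, or 2 as values where none was called; the 3 interaction genes per direction with the smallest p; and cell type markers. The stretch of chromosome 17, the windows of 11 genes and genes named for lying in or beside them were chosen after their values were seen, and so were Meg3 and the printed promoters. Precision is limited by the number of arrays: 95% intervals of a difference reached a median of 0.18 to either side where the mean level was 5 or more.

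The methods name a t-test with a false discovery rate, which was run as an alternative, with other models, filters and scalings and with each array left out. The replicate numbers of the labels are the clones, so the clone pairs the arrays across induction states and cannot be a fixed block for a comparison between clones. It was used as a random block instead.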

Additional observations from a re-analysis of the deposited data

Results flagged for a closer look

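The naming rules given above picked 164 called probe sets, not all of which are named in the text. In each, the 4 arrays of A4 and A5 were examined for an array far from the others by Dixon's test at the 95% level. Chance passes this test in about 1 of 20 groups, or 8.2 here. It was passed in 7. Hs6st2 read 4.02 on the induced A5 array against 4.33 to 4.38 on the others, Egr1 7.91 on the uninduced A5 array against 7.46 to 7.52, and Tek 5.62 on the induced A5 array against 5.68 to 5.70. Stag3 read 6.62 on the induced A5 array against 6.48 to 6.50, and Srxn1 8.003 against 7.84 to 7.86. On the uninduced A4 array Ina read 10.03 against 10.13 to 10.15 and Zfp619 6.06 against 6.10 to 6.11.

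Outside the probe sets with a single symbol, 127 further probe sets passed the threshold between A3 and the other clones. They have several symbols, none, or lie on chromosome Y, and they are in no count above.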

How the results depend on the processing

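No called probe set changed sign between A3 and the other clones under the alternatives run, while the number past the threshold moved. All called probe sets already had 1 sign in the 4 same-state differences. The alternatives reuse the same arrays, so a change of sign could hardly occur and its absence is no separate support. With the clone as a random replicate block, which pairs the 2 arrays of a clone, 842 were called higher and 764 lower, all 581 and 520 of the main calls among them (the estimated correlation within clones was -0.14). A negative correlation makes the SE of a difference between clones smaller, so these larger counts are no separate support. With an intensity trend 1039 and 881 were called, and with a mean of at least 5 required, 891 and 787. On clone means, 1 clone against 2, 318 and 258 were called, and for A3 against A5 379 and 337. The methods' t-test called 20 and 27, with 7 genes of the chromosome 17 stretch instead of 33. On uninduced or induced arrays alone, 1 array against 2, 0 were called in either direction and 0 in the stretch (smallest adjusted p 0.399 and 0.158). Leaving out each array in turn gave 31 to 456 higher, 31 to 425 lower and 9 to 32 in the stretch. The fewest came without an A3 array, where the lone A3 array is assumed to vary like the others (15 in the stretch without the uninduced one, 9 without the induced one). Robust variances, no induction term, clone terms, adjustment over the used probe sets, median centring and A3 against A4 kept each count within 1.5 times. Median centring, which removes the lower medians of the A3 arrays, gave 714 higher and 465 lower. Leaving out probe sets whose names end in _s_at, _x_at or _a_at kept the counts called higher and lower within 1.5 times as well. With 1 probe set per gene fitted, 471 were called higher and 503 lower, where the fit over all probe sets called 330 and 334 of these. The interaction gave 0 calls throughout (smallest adjusted p 0.933 to 0.9999, with the clone as a fixed block 0.976). It could not be fitted without an A3 array. Of 3550 values of the 164 called probe sets picked by the naming rules, 2499 stayed past the threshold, 1051 did not and 0 changed sign, with the same limit on the sign. Of 468 list medians 86 moved by more than the spread between arrays. The causes of these changes were not tested.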
